A study of Mus musculus with 108 samples.

Results

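Livers of male wild-type 129S1/SvImJ mice (129) were compared with livers of male wild-type C57BL/6J mice (B6) in the light phase of the day, all fed the high-fat, high-sucrose diet D12492i. The comparison took 18 of the 108 labelled libraries of the series: every 129 and every B6 library of this diet collected at zeitgeber time (ZT, hours after lights on) 2, 6 or 10, with 9 libraries per strain and 3 replicates at each time. The strain difference is 129 minus B6, with collection time as a blocking factor. It was set beside the same difference on normal chow at the same times (18 libraries) and on the high-fat diet at ZT14, 18 and 22 in the dark phase (18 libraries), which share no library with it. Both strains are inbred and neither carries an engineered allele by its labels, which give no age and do not say whether replicates were separate animals, so the p-values speak only to the variation seen among these libraries, part of which may be technical.

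The liver takes up dietary fat, makes fatty acids and cholesterol, stores triglyceride in lipid droplets and exports it in lipoproteins. Genes of cholesterol synthesis are driven by SREBP-2 when the sterol of the cell is low, and genes of fatty acid synthesis by SREBP-1c, LXR and ChREBP, which respond to insulin, oxysterols and sugar. C57BL/6J is the strain in which diet-induced obesity and fatty liver are most often studied, and 129 strains are known to gain less weight on such diets. Male mouse liver also expresses a set of genes under the pulses of growth hormone, among them the major urinary proteins and several cytochrome P450 enzymes.

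The values are normalised read numbers per RefSeq transcript. The authors' quantile normalisation gave every wild-type library the same set of values, with a total of 10837743, so the depth behind a value is unknown. Albumin (Alb) stood between 176662 and 863453 in all 18 libraries, so the tissue label held. Among the measured marker genes of other cells were 13 of 13 for Kupffer cells, 14 of 14 for sinusoidal endothelium, 11 of 15 for stellate cells, 5 of 10 for cholangiocytes, 4 of 10 for neutrophils, 3 of 8 for adipocytes and 1 of 14 for lymphocytes. Mir6236, a RefSeq microRNA entry that set libraries apart, ranged over 703 to 3812 in 129 libraries and 915 to 91012 in B6 libraries, and the 3 B6 libraries of ZT6 had the highest values (45004 to 91012). In B6 ZT6 replicate 1, 3.25% of the tested genes were below 1, against 0.177% to 0.310% in the 129 libraries. The part of this in the strain difference was not tested, but the counts are given without ZT6 and with Mir6236 as a covariate where they move.

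Of 11287 genes tested on the log2(value + 1) scale, 3040 (26.9%) differed between the strains with limma at a Benjamini-Hochberg adjusted p below 0.05: 1654 (14.7%) were higher and 1386 (12.3%) lower in 129 livers. The difference reached 2-fold for 672 genes (5.95%), 308 higher and 364 lower. The sign was the same at ZT2, ZT6 and ZT10 for 2993 of the 3040. In 286 genes (2.53%) every 129 library was above every B6 library, and in 256 (2.27%) every one was below. Without ZT6 the count was 2490 genes, 1245 in each direction. After a GC and length trend was removed it was 2732, with 1220 higher and 1512 lower, so the balance of directions depends on that step. The slope of a library's deviations from the gene means on GC content, in log2 per 10 percentage points of GC, ranged over -0.0301 to 0.263 in 129 libraries and 0.0009 to 0.457 in B6 libraries, and B6 ZT2 replicate 1 (0.457) and ZT10 replicate 2 (0.454) stood above every 129 library. Its part in the strain difference was not tested beyond that step. With Mir6236 as a covariate, 1440 genes differed (705 higher and 735 lower). Log2 Mir6236 correlated with strain over the 18 libraries (r = -0.693, with 129 as 1), so this covariate also takes up part of the strain difference. Why a call was lost with it was not tested. The median log2 difference over all tested genes was 0.0526. Counts of list members that follow are to be read against the 14.7% of all genes that were higher and the 12.3% that were lower. In what follows the 3 values given for a strain are the lowest, the median and the highest of its 9 libraries, and a log2 difference is 129 minus B6 ± its standard error from limma.

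Several genes were near 0 in one strain and well expressed in the other. Of the 3040 genes, 5 had a mean below 1 in one strain and of at least 50 in the other: Myom2, Urml, Zfp982, Cyp2b9 and Cfd (a description, picked after their values were seen). Myom2 (mm10 chr8:15057653-15133419), a protein of the muscle M-band, had 88.5, 105 and 334 in 129 livers, against 0, 0.003 and 2.21 in B6 livers (log2 difference 6.85 ± 0.29, adjusted p = 2.37e-13). Serpina3c, a serine protease inhibitor, had 145, 203 and 512 in 129 livers, against 0, 0.755 and 6.22 in B6 livers (6.82 ± 0.32, adjusted p = 1.18e-12). Ctse, the aspartic protease cathepsin E, had 232, 382 and 443 in 129 livers, against 0, 2.51 and 14.9 in B6 livers (6.61 ± 0.38, adjusted p = 4.04e-11). In these genes the groups lay far apart, with B6 libraries mostly near 0. The largest difference among genes higher in 129 livers was that of Gm4737 (mm10 chr16:46152991-46155077), a predicted gene, with 1308, 2380.5 and 2732 in 129 livers, against 0, 14.4 and 50.4 in B6 livers (7.70 ± 0.46, adjusted p = 5.76e-11). All of these were also higher in 129 livers on chow (6.95, 7.17, 6.68 and 8.62 log2 for Myom2, Serpina3c, Ctse and Gm4737), and no difference between the diets was called for them.

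In the other direction, Urml (mm10 chr13:68228436-68234731), listed by RefSeq as a non-coding RNA, had 0, 0 and 3.41 in 129 livers, against 127, 310.3 and 597 in B6 livers (log2 difference -7.78 ± 0.33, adjusted p = 2.47e-13). Zfp982 (mm10 chr4:147492417-147516064), a zinc finger gene, had 0, 0.0550 and 1.15 in 129 livers, against 136, 193 and 281 in B6 livers (-7.19 ± 0.21, adjusted p = 1.51e-15). Every 129 library was below every B6 library for both. Mme, the membrane peptidase neprilysin, had 7.88, 13.2 and 30.4 in 129 livers, against 373, 508 and 701 in B6 livers (-5.12 ± 0.19, adjusted p = 3.91e-14). Lgals1, the carbohydrate-binding galectin-1, had 3.76, 5.36 and 11.8 in 129 livers, against 88, 266 and 528 in B6 livers (-5.05 ± 0.32, adjusted p = 1.35e-10). Nlrp12, an intracellular sensor of the NLR family, had 1.05, 3.90 and 16.7 in 129 livers, against 107, 191 and 406 in B6 livers (-5.49 ± 0.30, adjusted p = 1.4e-11). None of these pairs of groups overlapped. Urml, Zfp982, Mme, Lgals1 and Nlrp12 were lower in 129 livers on chow as well (-7.78, -7.07, -5.10, -3.47 and -5.69 log2), without a called difference between the diets. The reads were aligned to mm10, which is a C57BL/6J genome, so a 129 transcript that differs from it in sequence or is missing from it can be listed too low. Values near 0 rest on few reads, and their differences on the log2(value + 1) scale depend on the added 1.

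By log2 difference the 15 largest in each direction, among called genes with a mean of at least 50 in the higher strain and the same sign at all 3 times, also held, on the higher side, Obp2a (6.11), Wdr72 (5.51), Gdpd3 (5.10), Cd1d2 (5.01), Asic5 (4.60), Prelid2 (3.76), Pcp4l1 (3.63) and Prxl2b (3.57), next to the P450, Mup and sulfotransferase genes described below. On the lower side they held Gm1966 (-5.71), 2610507I01Rik (-5.03), Trim30d (-4.56), Erbb4 (-4.41), Aqp4 (-4.30) and Lrit1 (-4.14). Obp2a encodes an odorant-binding lipocalin, Gdpd3 a lysophospholipase D, Cd1d2 a lipid-presenting CD1 molecule and Asic5 an acid-sensing channel that bile acids open. Erbb4 is a receptor of neuregulins and Aqp4 a water channel. In each of the 30 the strains did not overlap, which the choice by size favours. Of the 30, Sult1e1 and Cfd were not called on chow.

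Cholesterol synthesis genes were lower in 129 livers. Of 24 measured members of the list, 19 were lower, none was higher, and 23 had a negative difference at all 3 times, against 12.3% of all genes lower and 23.3% negative at all 3 times. The median of the list was -1.05 log2. Mvd, mevalonate diphosphate decarboxylase, had 3.94, 17.2 and 76.9 in 129 livers, against 25.5, 108 and 237 in B6 livers (log2 difference -2.46 ± 0.46, adjusted p = 0.000373). The Mvd transcript with the highest mean, which gives these values, is a non-coding RefSeq entry of that gene. Hmgcs1, the synthase that makes HMG-CoA, had 478, 1302 and 3532 in 129 livers, against 2482, 6142 and 8272 in B6 livers (-2.09 ± 0.29, adjusted p = 1.24e-05). Pmvk, phosphomevalonate kinase, had 65.2, 105 and 199.8 in 129 livers, against 198, 407 and 496 in B6 livers (-1.70 ± 0.22, adjusted p = 6.18e-06). In all 3 genes the B6 median lay above every 129 library, while the ranges overlapped. Fdps, farnesyl diphosphate synthase, had 301, 718 and 1518 in 129 livers, against 803, 1885 and 2655 in B6 livers (-1.49 ± 0.26, adjusted p = 0.000243). On chow 15 of 24 were lower (median -0.84, against 8.85% of all genes lower), and no member was called for a difference between the diets, against 4.39% of all genes, which is near the background. The lower count was 19 without ZT6 and 21 with Mir6236 as a covariate.

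The 250 bases upstream of the annotated start of Hmgcs1 (chr13:119690101-119690350, plus strand) and Mvd (chr8:122443423-122443672, minus strand) are shown because SREBP-2 acts on such promoters, often beside the factor NF-Y at CCAAT boxes. They are the RefSeq sequence of GRCm38.p6, hence of C57BL/6J, read 5′ to 3′ toward the gene, with capitals marking TCACNCCAC (a core of the sterol regulatory element) and CCAAT on either strand.
Hmgcs1: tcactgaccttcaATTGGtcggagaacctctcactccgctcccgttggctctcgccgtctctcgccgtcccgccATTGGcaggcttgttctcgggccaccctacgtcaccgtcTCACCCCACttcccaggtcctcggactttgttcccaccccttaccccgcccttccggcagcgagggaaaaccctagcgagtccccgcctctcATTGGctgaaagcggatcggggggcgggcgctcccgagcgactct
Mvd: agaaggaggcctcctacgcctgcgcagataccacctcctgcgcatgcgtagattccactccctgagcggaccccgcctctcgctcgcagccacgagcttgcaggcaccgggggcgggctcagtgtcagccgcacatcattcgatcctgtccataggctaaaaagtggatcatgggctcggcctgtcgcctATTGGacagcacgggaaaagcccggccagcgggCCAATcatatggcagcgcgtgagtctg

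The Hmgcs1 window holds 1 sterol element, 137 bases before the start, and 3 CCAAT boxes, and the Mvd window 2 CCAAT boxes, with no overlap between matches. Both genes were chosen after the values were seen. Of lower members holding the sterol element (Hmgcs1) or CCAAT (Mvd), each had the largest difference. A match was thus a condition of the choice. The RefSeq promoter table had a window for 16 of the 24 measured cholesterol genes. CCAAT was in 16 of these 16, against 10133 of 27025 (37.5%) of all windows and 40.6% of those of tested genes. TCACNCCAC was in 1 of 16, the Hmgcs1 window, against 1.22% of all windows. In the fatty acid synthesis list CCAAT was in 9 of 14 windows and TCACNCCAC in 1, that of Mlxipl, which encodes ChREBP (log2 difference -0.40, adjusted p = 0.0756). These are counts of letters in a window and not of bound sites.

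Fatty acid synthesis followed the same direction. Of 18 measured members, 13 were lower in 129 livers and none was higher (median -0.998 log2). Scd1, the desaturase that makes oleate and palmitoleate, had 1324, 2477 and 19287 in 129 livers, against 14947, 37078 and 91012 in B6 livers (log2 difference -3.63 ± 0.44, adjusted p = 2.93e-06). Acacb, the mitochondrial acetyl-CoA carboxylase, had 19, 46.1 and 90.7 in 129 livers, against 98.4, 318 and 801 in B6 livers (-2.79 ± 0.38, adjusted p = 1.02e-05), with every 129 library below every B6 library. Fasn, fatty acid synthase, had 264, 682 and 1279 in 129 livers, against 793, 3142 and 9658 in B6 livers (-2.40 ± 0.32, adjusted p = 8.46e-06). The 129 median of Fasn lay below the lowest B6 library, although the ranges overlapped. Thrsp (Spot 14), a nuclear protein that promotes lipogenesis, had 70.2, 246 and 3349 in 129 livers, against 327, 1899 and 5508 in B6 livers (-1.99 ± 0.38, adjusted p = 0.000531). Its ranges overlapped widely. Srebf1, the gene of SREBP-1, had a log2 difference of -0.90 (adjusted p = 0.00176; named for its role, outside the rule). On chow 7 of 18 were lower (median -0.50). Elovl5, an elongase of polyunsaturated fatty acids, was the 1 member that differed between the diets: its difference was -1.18 on the high-fat diet and 0.26 on chow (difference of differences -1.44 ± 0.27, adjusted p = 0.00222).

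**Figure D1:**
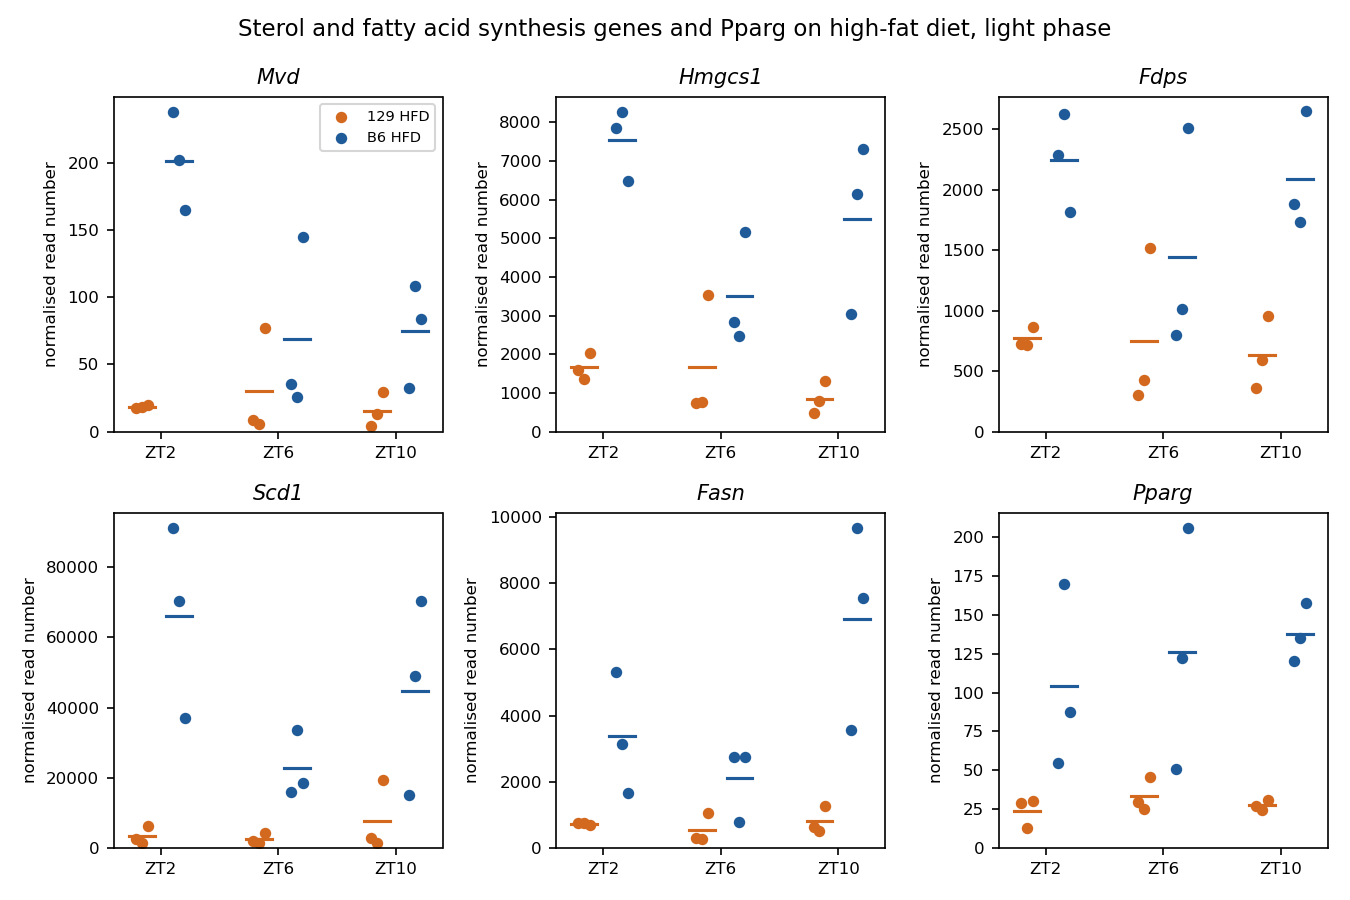
Normalised values of 6 genes of cholesterol synthesis (Mvd, Hmgcs1, Fdps), fatty acid synthesis (Scd1, Fasn) and a lipogenic receptor (Pparg) on linear axes from 0, in 129 and B6 livers on the high-fat diet at ZT2, ZT6 and ZT10; each point is 1 library and each bar a mean. For Pparg the 129 libraries lie between 12.7 and 45.7 and the B6 libraries between 50.8 and 206, while the other 5 genes overlap between the strains.

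Genes of lipid storage were in part lower. In the lipid droplet list 7 of 15 measured members were lower, 1 was higher and 7 were not called (median -0.53). Fitm1, an endoplasmic reticulum protein that helps droplets form, had 8.51, 17.5 and 22 in 129 livers, against 64.5, 148 and 218 in B6 livers (log2 difference -2.79 ± 0.22, adjusted p = 6.61e-09). Plin4, a coat protein of lipid droplets, had 17.7, 35.8 and 75.1 in 129 livers, against 91.5, 174 and 389.9 in B6 livers (-2.03 ± 0.27, adjusted p = 9.26e-06). G0s2, an inhibitor of the triglyceride lipase ATGL, had 65.5, 141 and 298 in 129 livers, against 370.3, 599 and 943 in B6 livers (-1.99 ± 0.24, adjusted p = 3.12e-06). In all 3 genes every 129 library was below every B6 library. For Plin4 the difference depended on diet: on chow it was -0.58, and the difference of differences was -1.45 ± 0.42, adjusted p = 0.043. Cidec, which fuses droplets, had 4.44, 8.69 and 12.5 in 129 livers, against 0, 45.8 and 231 in B6 livers (-2.09 ± 0.71, adjusted p = 0.0341), a call that was lost in 9 of the 18 refits that each left out 1 library (adjusted p up to 0.0729). The 1 member that was higher, Hsd17b13, a droplet-bound retinol dehydrogenase, had 2669, 3360.1 and 3786 in 129 livers, against 1567, 1946 and 3504 in B6 livers (0.63 ± 0.13, adjusted p = 0.000903). Of 11 measured genes of triglyceride synthesis 4 were lower (Gpd1, Gpam, Agpat2 and Lpin2) and 7 were not called (median -0.08). Gpd1, which makes glycerol 3-phosphate, had 374, 694 and 813 in 129 livers, against 1165, 1364 and 2155 in B6 livers (-1.15 ± 0.13, adjusted p = 1.25e-06), without overlap. Gpam, the first acyltransferase of the pathway, had a log2 difference of -0.89 (adjusted p = 0.00164). Agpat2 and Lpin2 had log2 differences of -0.43 and -0.48. The call of Agpat2 was lost after the GC and length trend was removed, and that of Lpin2 in 13 of the 18 refits that each left out 1 library (adjusted p up to 0.0956).

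Of 15 genes of fatty acid uptake and the PPAR receptors, 8 were lower and none was higher (median -0.54). Pparg, the lipogenic PPAR that is scarce in lean liver, had 12.7, 29 and 45.7 in 129 livers, against 50.8, 122 and 206 in B6 livers (log2 difference -2.01 ± 0.25, adjusted p = 3.79e-06). Every 129 library was below every B6 library. Cd36, a fatty acid translocase and a PPAR target, had 386, 539.6 and 879.8 in 129 livers, against 757, 1615 and 3385 in B6 livers (-1.48 ± 0.23, adjusted p = 7.02e-05). Acsl5, an acyl-CoA synthetase, had 1688, 2273 and 2810.0 in 129 livers, against 3034, 3923 and 5641 in B6 livers (-0.87 ± 0.12, adjusted p = 1.44e-05). Pparg and Cd36 were lower in 129 livers on chow (-2.16 and -1.65 log2), and 6 of 15 were lower there. The lower count fell to 4 with Mir6236 as a covariate. Of 34 genes of fatty acid oxidation and ketogenesis, 8 were lower and 1 was higher, against 12.3% and 14.7% of all genes. The share called in either direction, 26.5%, is near the 26.9% of all genes, but the calls were mostly lower. Vnn1, the pantetheinase vanin 1 and a PPARα target, had 42, 128 and 381 in 129 livers, against 411, 710.3 and 927 in B6 livers (-2.20 ± 0.27, adjusted p = 3.78e-06). Acot3, a peroxisomal acyl-CoA thioesterase, had 4.81, 24 and 97.2 in 129 livers, against 30.4, 93.9 and 351 in B6 livers (-1.95 ± 0.40, adjusted p = 0.00104). Acaa1b, a peroxisomal thiolase, had 1007, 1364 and 2139.7 in 129 livers, against 1996, 3933 and 6516 in B6 livers (-1.37 ± 0.19, adjusted p = 1.17e-05). Vnn1 was separated in every library, as was Acsl5 above, while Acot3 and Acaa1b overlapped. The 1 higher member was Acadm, the medium-chain acyl-CoA dehydrogenase, with 3204, 4168 and 4906 in 129 livers, against 1775, 2611 and 3422 in B6 livers (0.69 ± 0.10, adjusted p = 3.89e-05).

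**Figure D2:**
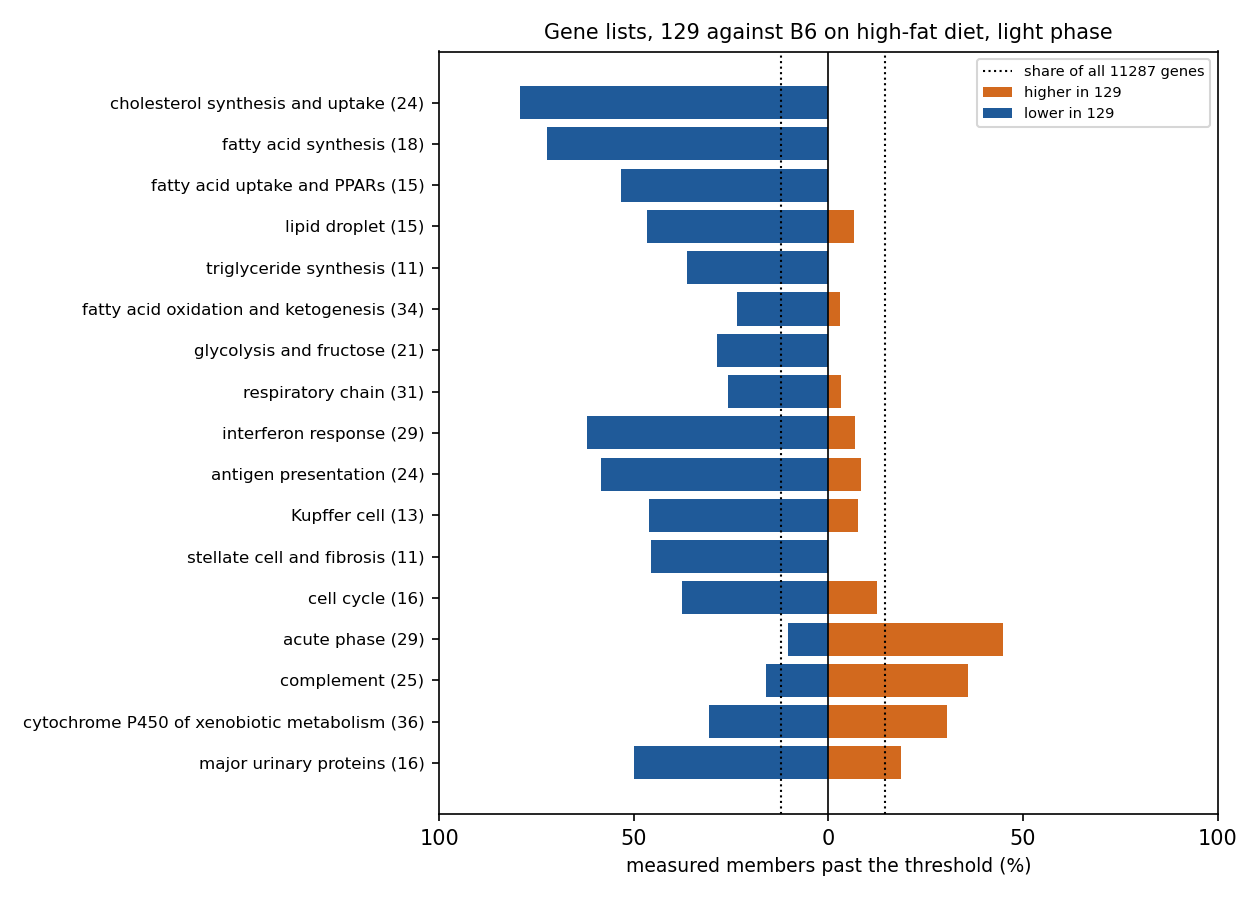
Share of the measured members of 17 gene lists (number measured in brackets) that were higher (right) or lower (left) in 129 than in B6 livers on the high-fat diet in the light phase, in percent; dotted lines mark the share of all 11287 genes in each direction. Cholesterol synthesis (19 of 24 lower) and fatty acid synthesis (13 of 18 lower) have no higher member.

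Of 21 measured genes of glycolysis and fructose use 6 were lower and none was higher (median -0.13). The share called in either direction, 28.6%, is near the 26.9% of all genes. All 6 calls were lower, while 12.3% of all genes were lower and 14.7% higher. Gapdh had 835, 1076 and 1428 in 129 livers, against 1277, 1522 and 2563 in B6 livers (log2 difference -0.67 ± 0.13, adjusted p = 0.000418). Its ranges overlapped, and on chow 0 members were lower and 2 higher, with no member called for the difference between diets. Gluconeogenesis had 1 lower member of 12, the glucagon receptor Gcgr (-0.53 log2, adjusted p = 0.000367). In the respiratory chain list 8 of 31 were lower and 1 higher (Uqcrc2), against 12.3% and 14.7% of all genes. The share called in either direction, 29%, is near the background, but the calls were mostly lower. The count of lower members was 3 with Mir6236 as a covariate. Cox6c, a subunit of cytochrome oxidase, had 582, 701 and 745 in 129 livers, against 828, 1122 and 1311 in B6 livers (-0.66 ± 0.08, adjusted p = 2.42e-06), with no overlap. On chow its difference was -0.01, and the difference of differences was -0.65 ± 0.11, adjusted p = 0.000475.

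Nnt, the mitochondrial transhydrogenase that makes NADPH, is known to carry a deletion of several exons in C57BL/6J. Its value (mm10 chr13:119334317-119409011) was 658, 721 and 838 in 129 livers, against 298, 338 and 443 in B6 livers (log2 difference 1.07 ± 0.08, adjusted p = 2.32e-09). Every 129 library was above every B6 library, and the chow difference was 1.43. Nnmt, which methylates nicotinamide, had 17.4, 151 and 530.3 in 129 livers, against 240.0, 435 and 610.0 in B6 livers (-1.69 ± 0.41, adjusted p = 0.00375). Its ranges overlapped, and the call was lost with Mir6236 as a covariate. In the NAD list 5 of 20 were higher (Nnt, Acmsd, Afmid, Aox3 and Kynu) and 5 lower (Nnmt, Haao, Naprt, Kmo and Qprt; median 0.04). Esrrg, the nuclear receptor ERRγ on which the series also has a knockout, had 17.4, 24 and 48.1 in 129 livers, against 19.7, 29 and 54.4 in B6 livers, and was not called (log2 difference -0.14 ± 0.21, adjusted p = 0.658). Esrra, the gene of ERRα, had 16.8, 33.9 and 61.6 in 129 livers, against 41.8, 58 and 89.9 in B6 livers (-0.98 ± 0.20, adjusted p = 0.000842). It was the 1 called member of 8 in that list, differed between the diets (chow 0.99, difference of differences -1.97 ± 0.42, adjusted p = 0.00591) and lost the call with Mir6236 as a covariate. Asns, the asparagine synthetase gene that ATF4 drives when amino acids are short, had 29, 36.1 and 64.5 in 129 livers, against 0, 3.41 and 16.3 in B6 livers (3.26 ± 0.43, adjusted p = 6.66e-06). Its groups did not overlap. On chow the difference was -0.11, and the difference of differences was 3.37 ± 0.48, adjusted p = 6.96e-05.

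Lipoprotein genes moved in both directions, with 5 of 19 higher (Apoa4, Apob, Apoc3, Apof and Apoh) and 5 lower (Apoa5, Apoc4, Apoe, Pltp and Angptl8; median 0.09). Apob, the main protein of VLDL, lost its call in 14 of the 18 refits that each left out 1 library (adjusted p up to 0.0847), and its sign reversed with Mir6236 as a covariate (-0.27). Pltp, the phospholipid transfer protein and an LXR target, had 50.6, 60.2 and 74 in 129 livers, against 121, 212 and 318 in B6 livers (log2 difference -1.73 ± 0.16, adjusted p = 6.35e-08), without overlap. Angptl8, an insulin-induced inhibitor of lipoprotein lipase complexes, had 14.9, 32.7 and 105 in 129 livers, against 58.4, 95.6 and 625 in B6 livers (-1.85 ± 0.43, adjusted p = 0.0026). The highest of its B6 values was that of ZT6 replicate 1, and the call was lost with Mir6236 as a covariate. Apoa4, an apolipoprotein of chylomicrons and HDL, had 5545, 7410.4 and 12408 in 129 livers, against 798, 3290.1 and 11457 in B6 livers (1.15 ± 0.39, adjusted p = 0.0328). Its call was lost in 9 of the 18 refits that each left out 1 library (adjusted p up to 0.0629). On chow Apoa4 had 441, 2032 and 2954 in 129 livers, against 43.9, 79.7 and 239 in B6 livers (3.77 ± 0.35, adjusted p = 1.49e-07), and the difference of differences was -2.62 ± 0.58, adjusted p = 0.00798. Scarb1, the HDL receptor SR-BI, had 620.2, 709 and 849 in 129 livers, against 273, 411 and 596 in B6 livers (0.81 ± 0.14, adjusted p = 0.000133), with every 129 library above every B6 library.

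Of 21 measured bile acid genes 4 were higher (Cyp7b1, Fgfr4, Slco1b2 and Abcb11) and 2 lower (Hsd3b7 and Klb) in 129 livers. The share called, 28.6%, is near the 26.9% of all genes. Cyp7b1, the oxysterol 7α-hydroxylase of the acidic bile acid pathway, had 2372, 3276 and 5006 in 129 livers, against 531, 1441 and 1844 in B6 livers (log2 difference 1.59 ± 0.20, adjusted p = 4.8e-06). Every 129 library lay above every B6 library. Fgfr4, the receptor through which FGF15 represses bile acid synthesis, had 64.2, 82.4 and 107 in 129 livers, against 30.4, 39.3 and 108 in B6 livers (0.73 ± 0.21, adjusted p = 0.0128), with overlap. Its co-receptor Klb had 182, 240.4 and 339 in 129 livers, against 281, 318 and 519 in B6 livers (-0.46 ± 0.10, adjusted p = 0.00259). The calls of Fgfr4 and of the bile salt export pump Abcb11 (0.36) were lost without ZT6 and with Mir6236 as a covariate.

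Cytochrome P450 genes of xenobiotic metabolism differed in both directions: 11 of 36 were higher and 11 lower (median -0.04). Cyp2b9 (mm10 chr7:26173409-26210660), a P450 that is female-biased in mouse liver, had 0, 0 and 0.778 in 129 livers, against 69.2, 246 and 1279.6 in B6 livers (log2 difference -8.21 ± 0.45, adjusted p = 1.4e-11). No 129 library reached the lowest B6 library. Cyp2c39 had 691, 1066 and 1784 in 129 livers, against 7.99, 16.5 and 47.1 in B6 livers (5.87 ± 0.20, adjusted p = 2.24e-14), with every 129 library above every B6 library. Cyp2a22 had 0.706, 3.91 and 10.4 in 129 livers, against 6.48, 46.6 and 182 in B6 livers (-2.92 ± 0.59, adjusted p = 0.000906). Cyp2a4, a female-biased steroid 15α-hydroxylase, had 14.6, 48 and 70.8 in 129 livers, against 0, 3.40 and 87 in B6 livers (2.59 ± 0.75, adjusted p = 0.0137). Its groups overlapped, and the call was lost without ZT6 and with Mir6236 as a covariate. P450 genes of a subfamily are close in sequence, so reads can be placed on the wrong copy, and the 129 copies can differ from mm10.

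Conjugating enzymes also differed. Sult1e1, the estrogen sulfotransferase, had 10.3, 89.9 and 144 in 129 livers, against 0, 0.854 and 5.36 in B6 livers (log2 difference 5.19 ± 0.41, adjusted p = 5.68e-09). Ugt3a1, a glycosyltransferase, had 191, 245 and 338 in 129 livers, against 517, 632 and 834 in B6 livers (-1.36 ± 0.10, adjusted p = 1.68e-09). Neither gene overlapped between strains. In the sulfo- and glucuronosyltransferase list 7 of 22 were higher and 3 lower (Papss2, Ugt2b38 and Ugt3a1), and in the glutathione transferase list 4 of 20 were higher (Gstm1, Gstm3, Gstm4 and Gstz1) and 6 lower. Gstm3 lost its call in 7 of the 18 refits that each left out 1 library (adjusted p up to 0.0695). Mgst3, a membrane-bound glutathione transferase, had 22.9, 40 and 46.8 in 129 livers, against 56.5, 84.1 and 141 in B6 livers (-1.19 ± 0.18, adjusted p = 5.13e-05). Gstt3 had 59.5, 157 and 210.3 in 129 livers, against 173, 293 and 460.2 in B6 livers (-1.10 ± 0.20, adjusted p = 0.000289). On chow Gstt3 differed by -0.10, and the difference of differences was -0.99 ± 0.26, adjusted p = 0.0264.

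The major urinary proteins, small lipocalins that carry pheromones and are secreted by male liver, had the lowest median of the pathway lists, -1.53 log2, with 3 of 16 measured members higher (Mup9, Mup10 and Mup21) and 8 lower. Mup11 had 2.56, 6.79 and 10.1 in 129 livers, against 282, 1375 and 4813 in B6 livers (log2 difference -7.37 ± 0.48, adjusted p = 2.05e-10). Mup14 had 2.60, 6.78 and 101 in 129 livers, against 289, 1250.5 and 4942 in B6 livers (-6.32 ± 0.67, adjusted p = 4.8e-07). For Mup20, also called darcin, the values were 1710.0, 3542 and 4499.7 in 129 livers, against 9152, 12408 and 16671 in B6 livers (-2.01 ± 0.16, adjusted p = 4.04e-09). None of the 3 overlapped. In the other direction Mup9 had 392, 808 and 1478 in 129 livers, against 1.35, 7.07 and 130.4 in B6 livers (5.82 ± 0.54, adjusted p = 6.42e-08), and Mup10 had 15.2, 24.5 and 40.6 in 129 livers, against 0, 0.667 and 4.75 in B6 livers (3.76 ± 0.34, adjusted p = 4.77e-08). The Mup genes are near-identical copies, so which copy a read came from is uncertain, and the lower count was 3 with Mir6236 as a covariate. On chow 12 of 16 were lower and 3 higher.

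Among 17 measured genes that are higher in male than in female mouse liver, 4 were higher (Cyp4a12a, Cyp7b1, C6 and Egfr) and 3 lower (Mup20, Serpina1e and Ugt2b38) in 129 livers. Cyp4a12a, a fatty acid ω-hydroxylase, had 1521, 2075 and 2323 in 129 livers, against 134, 312 and 452 in B6 livers (log2 difference 2.77 ± 0.17, adjusted p = 1.12e-10), without overlap. Serpina1e, a protease inhibitor of the α1-antitrypsin family, had 289, 394 and 566 in 129 livers, against 1402, 7952 and 16429 in B6 livers (-3.93 ± 0.37, adjusted p = 7.72e-08), also without overlap. Of 9 measured female-biased genes 2 were higher (Sult1e1 and Cyp2a4) and 5 lower (Cyp2b9, Cd36, Acot3, Abcd2 and Prom1). Abcd2, a peroxisomal transporter of very long-chain acyl-CoA, had 18.1, 64.7 and 86.2 in 129 livers, against 306, 511 and 601 in B6 livers (-3.21 ± 0.23, adjusted p = 8.26e-10). Prom1 lost its call in 9 of the 18 refits that each left out 1 library (adjusted p up to 0.0729). Igfbp3, the main carrier of circulating IGF-1, had 130.4, 187 and 244 in 129 livers, against 66.6, 102 and 182 in B6 livers (0.91 ± 0.13, adjusted p = 2.2e-05). Of 21 genes of growth hormone and insulin signalling 3 were higher (Igfbp3, Igfbp4 and Ghr) and 2 lower, Igfals among them. That share, 23.8%, is near the 26.9% of all genes. The growth hormone receptor Ghr had the smallest of the 3 higher differences (0.22 log2, adjusted p = 0.0405).

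Interferon-response genes were lower in 129 livers. Of 29 measured members (36 listed) 18 were lower and 2 higher, with a median of -0.60 log2, against 12.3% and 14.7% of all genes. Bst2 (tetherin), which holds enveloped viruses at the cell surface, had 46.6, 81.7 and 98.5 in 129 livers, against 160.4, 289 and 345 in B6 livers (log2 difference -1.86 ± 0.15, adjusted p = 5.94e-09). Oasl1, an inhibitor of Irf7 translation, had 4.92, 8.54 and 17.6 in 129 livers, against 21.1, 41.2 and 67.4 in B6 livers (-2.20 ± 0.25, adjusted p = 1.15e-06). Both were separated in every library. Irf7, the interferon-induced transcription factor, had 21.7, 31.5 and 74.3 in 129 livers, against 67.3, 90.5 and 161 in B6 livers (-1.28 ± 0.21, adjusted p = 8.92e-05). Gbp6, a guanylate-binding protein, had 18.1, 29.7 and 50.2 in 129 livers, against 39.7, 88.5 and 163 in B6 livers (-1.53 ± 0.26, adjusted p = 0.000123). The B6 median of Irf7 and of Gbp6 lay above every 129 library. The 2 higher members were Mx2 (0.99) and Xaf1 (1.21). On chow 20 of 29 were lower and 1 higher. With Mir6236 as a covariate 10 were lower, and without ZT6 19.

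The promoters of Bst2 (chr8:71537473-71537722, minus strand) and Gbp2 (chr3:142620413-142620662, plus strand) are shown because STAT and IRF factors act on pairs of GAAA with 2 bases of any kind between them, the core of the interferon-stimulated response element. The 250 bases before the annotated start are from RefSeq, GRCm38.p6, 5′ to 3′ toward the gene, with matches on either strand in capitals. Both were chosen after the values were seen, as the lower members with the largest differences among those whose window held the element. Their matches were thus a condition of the choice. Gbp2, another guanylate-binding protein, had a log2 difference of -1.07 ± 0.30 (adjusted p = 0.0107).
Bst2: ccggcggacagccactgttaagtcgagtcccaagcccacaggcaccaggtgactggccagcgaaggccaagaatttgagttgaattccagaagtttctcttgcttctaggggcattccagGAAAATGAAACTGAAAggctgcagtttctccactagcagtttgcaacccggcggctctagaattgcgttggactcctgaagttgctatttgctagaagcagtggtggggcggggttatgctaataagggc
Gbp2: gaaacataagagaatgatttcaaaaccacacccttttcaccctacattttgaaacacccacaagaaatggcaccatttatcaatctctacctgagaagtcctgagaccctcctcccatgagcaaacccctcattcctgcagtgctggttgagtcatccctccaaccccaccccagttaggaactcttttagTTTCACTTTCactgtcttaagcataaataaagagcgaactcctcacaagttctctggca

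Bst2 has 2 overlapping matches, 130 and 124 bases before the start, and Gbp2 has 1, 59 bases before it on the minus strand. Of 22 measured interferon genes with a window, 13 (59.1%) held this element, against 936 of 27025 (3.46%) of all windows and 3.3% of those of tested genes. Among the 13 interferon genes lower in 129 livers that had a window, 8 held it. The element was also in 5 members that were not lower, Isg15 (0.58, adjusted p = 0.308) and Ifit1 (-0.16, adjusted p = 0.668) among them.

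Antigen presentation genes had 14 of 24 measured members lower and 2 higher (median -0.59), against 12.3% and 14.7% of all genes. H2-Q1, a non-classical class I molecule, had 0.798, 4.71 and 14.1 in 129 livers, against 16.2, 53 and 149.9 in B6 livers (log2 difference -3.37 ± 0.44, adjusted p = 6.24e-06). H2-Q7 had 11.7, 23.5 and 40.04 in 129 livers, against 10, 66.1 and 88.8 in B6 livers (-1.28 ± 0.28, adjusted p = 0.00173). The 2 higher members were H2-Bl and H2-T10. H2-Bl had 12.6, 26.8 and 35.3 in 129 livers, against 0, 0.904 and 4.24 in B6 livers (3.78 ± 0.33, adjusted p = 1.94e-08), with no overlap. H2 genes are polymorphic, near-identical copies, so a 129 read may be placed on another copy or not at all. H2-K1 (-0.67) and H2-D1 (-0.82), the classical molecules, were lower in every 129 library than in any B6 library. The proteasome subunit Psmb8, which trims peptides for class I, had a difference of -1.07 (adjusted p = 7.9e-05) and, like H2-K1 and H2-D1, was named outside the rule. On chow 5 of 24 were lower and 2 higher.

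Markers of Kupffer cells, the resident macrophages of the liver, were lower in 6 of 13 and higher in 1 (median -0.56). Of all genes 12.3% were lower and 14.7% higher. C1qa, a chain of complement C1q that macrophages secrete, had 37, 52.6 and 87.4 in 129 livers, against 102, 145 and 214 in B6 livers (log2 difference -1.42 ± 0.17, adjusted p = 2.45e-06), without overlap. C1qc had 35.2, 43.1 and 63.4 in 129 livers, against 56.7, 92.4 and 150.3 in B6 livers (-1.03 ± 0.16, adjusted p = 5.42e-05). The summed level of the 13 markers was 3185, 3812 and 4447 in 129 livers, against 2606, 4202 and 5039 in B6 livers, and the sums overlapped. The 1 higher member was Slc40a1, the iron exporter ferroportin, which hepatocytes also express, with 1743, 2064 and 2406 in 129 livers, against 1265, 1383 and 1546 in B6 livers (0.56 ± 0.07, adjusted p = 6.6e-06). Slc40a1 made up a large part of the summed level, so the overlap of the sums says little about the other markers. The part of Kupffer cell content in the interferon, antigen presentation and complement differences was not tested, and in bulk tissue fewer cells of a type and less RNA per cell cannot be told apart. On chow 5 of 13 were lower.

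Acute phase genes, secreted by hepatocytes under IL-6 and IL-1, were more often higher than lower: 13 of 29 were higher and 3 lower (median 0.38). Of all genes 14.7% were higher and 12.3% lower. Apcs, serum amyloid P, had 1477, 1973 and 4390.0 in 129 livers, against 408, 463 and 804 in B6 livers (log2 difference 2.04 ± 0.16, adjusted p = 3.59e-09). Orm3, an α1-acid glycoprotein, had 28.5, 43.1 and 134 in 129 livers, against 0, 10 and 24.1 in B6 livers (2.78 ± 0.52, adjusted p = 0.000393). Both were separated, but Orm3 lost its call with Mir6236 as a covariate. The 3 lower members were Serpina1b, Serpina1d and Serpina1e, near-identical copies of the α1-antitrypsin gene. Serpina1d had 1227, 1789 and 2601 in 129 livers, against 7297, 10401 and 11843 in B6 livers (-2.48 ± 0.12, adjusted p = 1.3e-12). The higher count was 8 without ZT6 and 3 with Mir6236 as a covariate, and on chow 6 were higher and 4 lower.

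Of 25 measured complement genes 9 were higher and 4 lower (Cfd, Cfp, Mbl1 and Mbl2; median 0.09), against 14.7% and 12.3% of all genes. C4a had 111, 164 and 1081 in 129 livers, against 69.6, 94.8 and 121 in B6 livers (log2 difference 1.33 ± 0.26, adjusted p = 0.000581). C9, the pore-forming last component, had 3025, 4401 and 5061 in 129 livers, against 1797, 2106 and 3484 in B6 livers (0.90 ± 0.12, adjusted p = 1.04e-05). The terminal components Hc (0.62), C6 (0.77), C8a (0.65) and C8b (0.52) were higher as well (named after their values were seen). Cfd, complement factor D or adipsin, had 0, 0 and 1.16 in 129 livers, against 26.7, 72.8 and 259.9 in B6 livers (-6.07 ± 0.40, adjusted p = 2.34e-10). Every 129 library was below every B6 library. Cfd is known as an adipocyte product: of the 8 adipocyte markers listed 3 were measured (Cfd itself, Lipe and Fabp4). Their summed level was 35.3, 54.1 and 71.3 in 129 livers, against 80.4, 205 and 341 in B6 livers. This sum holds Cfd, so its separation says little about Lipe and Fabp4. Of the 3, only Cfd was separated in every library. Fabp4 ranged over 14.6 to 39.0 in 129 livers and 19.5 to 89.3 in B6 livers. Its call was lost in 12 of the refits that each left out a single library (adjusted p up to 0.0914). The other listed markers, Adipoq, Lep, Plin1, Retn and Cidea, were below the filter. Their means over the 72 wild-type libraries, which pool strains, diets and phases, were 0.386, 0.145, 0.147, 0.092 and 6.862. The part of adipocyte RNA in the Cfd difference was not tested. The complement count of higher members was 5 without ZT6, 6 after the GC and length trend was removed and 8 with Mir6236 as a covariate.

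Collagen genes were lower in 129 livers. Of 11 measured genes of stellate cells and fibrosis, 5 were lower, all of them collagens, and none was higher (median -0.41). Col3a1 (mm10 chr1:45311538-45349706), the fibrillar collagen of reticulin, had 49.9, 73.3 and 119 in 129 livers, against 151, 291 and 1167 in B6 livers (log2 difference -2.19 ± 0.28, adjusted p = 4.75e-06). Col1a2 had 9.05, 19.1 and 19.6 in 129 livers, against 39.8, 91.3 and 235 in B6 livers (-2.14 ± 0.24, adjusted p = 1.18e-06). Col1a1 had 0.0160, 2.35 and 6.56 in 129 livers, against 7.66, 12.9 and 118 in B6 livers (-2.60 ± 0.40, adjusted p = 4.44e-05). Col4a2, of basement membranes, had 30.3, 44.7 and 57.8 in 129 livers, against 59.97, 89.6 and 250.4 in B6 livers (-1.12 ± 0.21, adjusted p = 0.00044). In all 4, and in Col4a1 (-1.06), every 129 library was below every B6 library. The other 6 measured markers, such as Dcn and Lrat, were not called, and the summed level of the list was 2785, 3133 and 3509.7 in 129 livers, against 3202, 3724 and 5096 in B6 livers, with overlap. On chow Col3a1 had 65.7, 105 and 148 in 129 livers, against 101, 152 and 225 in B6 livers, a smaller difference (-0.53 ± 0.17, adjusted p = 0.0329). The difference of differences was negative and called for 4 of 11 members, against 1.65% of all genes: Reln (-0.52 ± 0.15, adjusted p = 0.0463), Col3a1 (-1.66 ± 0.35, adjusted p = 0.00575), Col1a2 (-1.76 ± 0.32, adjusted p = 0.00206) and Col4a1 (-1.14 ± 0.32, adjusted p = 0.0382). How much of this is stellate cell number was not tested.

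Markers of sinusoidal endothelium were lower in 5 of 14 (Lyve1, Clec4g, Egfl7, Oit3 and Cdh5) and higher in 1 (Bmp2), with a summed level of 2753, 3198 and 3752 in 129 livers, against 2769.9, 3324 and 3536 in B6 livers. Clec4g, a lectin of these cells, had 138, 159 and 198 in 129 livers, against 189, 292 and 357 in B6 livers (log2 difference -0.76 ± 0.11, adjusted p = 1.43e-05). Lyve1, their hyaluronan receptor, had 7.66, 22.8 and 40.4 in 129 livers, against 17.9, 71 and 142 in B6 livers (-1.37 ± 0.31, adjusted p = 0.00238). Both overlapped, and with Mir6236 as a covariate 2 of the 14 were lower. Cell cycle genes had 6 of 16 measured members lower and 2 higher (Cdkn1a and Cdkn1b; median -0.71). Mcm6, a subunit of the replicative helicase, had 0.863, 5.06 and 11.3 in 129 livers, against 17.4, 40.8 and 68.1 in B6 livers (-2.73 ± 0.33, adjusted p = 2.63e-06), without overlap. Ccnd1, cyclin D1, had 30.4, 50.7 and 83 in 129 livers, against 57.8, 116 and 276 in B6 livers (-1.21 ± 0.22, adjusted p = 0.000286). Cdkn1a, the inhibitor p21, had 2.40, 11.1 and 99.3 in 129 livers, against 0, 5.10 and 60.1 in B6 livers (1.63 ± 0.43, adjusted p = 0.00811). Its ranges overlapped almost wholly, and the call was lost with Mir6236 as a covariate. Hspb1, a small heat shock protein, had 1.10, 4.93 and 10.9 in 129 livers, against 18, 26.8 and 55.9 in B6 livers (-2.48 ± 0.24, adjusted p = 8.47e-08). Atf6, a sensor of the unfolded protein response, had 429, 508 and 550.4 in 129 livers, against 625, 734 and 984 in B6 livers (-0.61 ± 0.08, adjusted p = 7.16e-06). Hspb1 and Atf6 did not overlap between strains, but their lists as a whole were at or below the background share: 2 of 16 heat shock genes were higher (Hsp90ab1 and Hspd1) and 2 lower (Hspa8 and Hspb1), and 2 of 18 unfolded protein response genes were higher (Canx and Dnajc3) and 2 lower (Atf6 and Herpud1). With 1 library left out, the call of Dnajc3 was lost in 9 of 18 refits (adjusted p up to 0.0681) and that of Canx in 1 (0.0515).

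**Figure D3:**
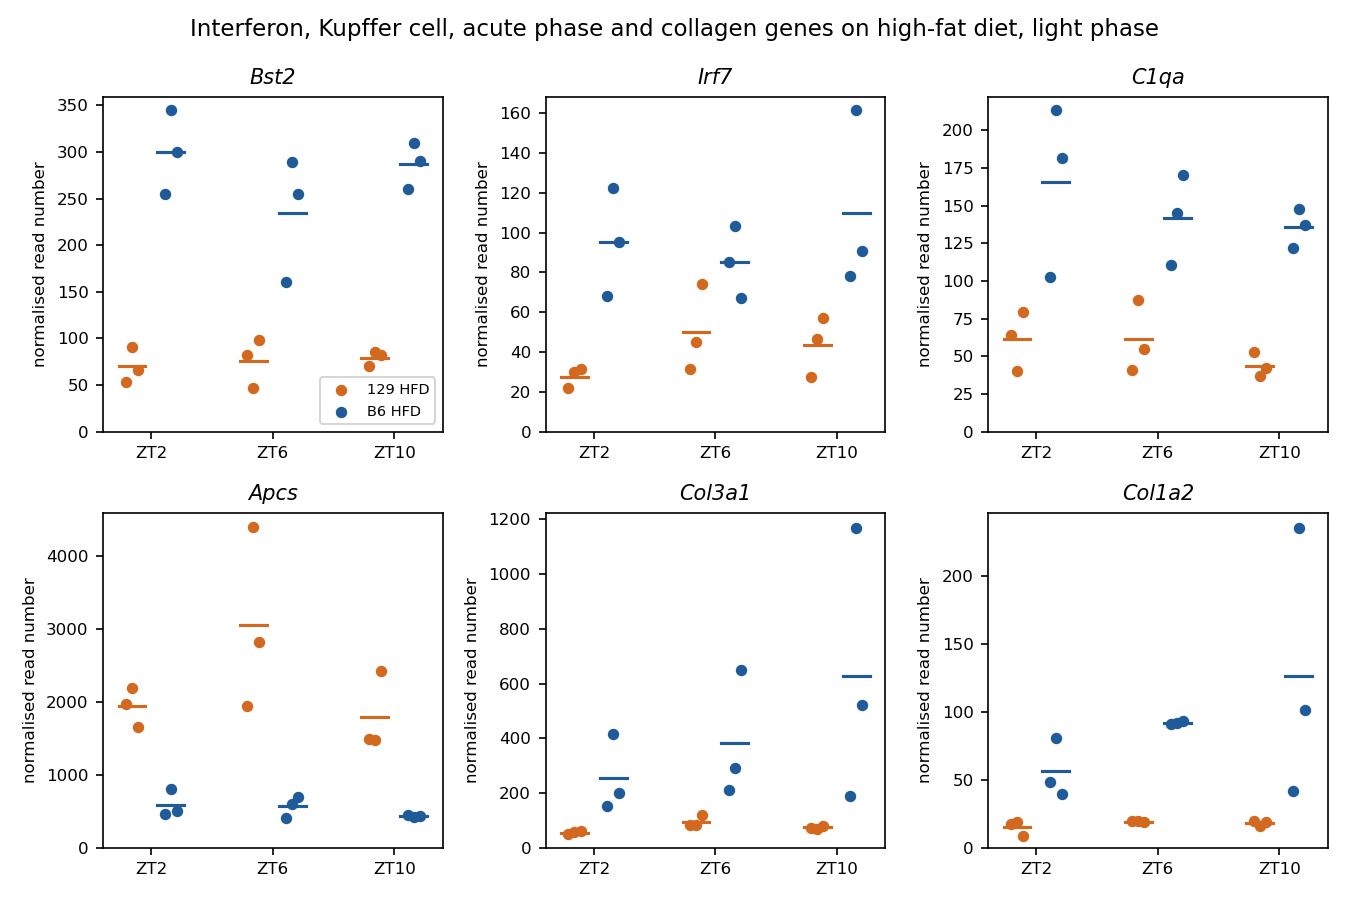
Normalised values on linear axes from 0 of 2 interferon-response genes (Bst2, Irf7), a Kupffer cell marker (C1qa), an acute phase gene (Apcs) and 2 collagens (Col3a1, Col1a2) by strain and time on the high-fat diet; points are libraries and bars means. Apcs lies between 1477 and 4390.0 in 129 livers and between 408 and 804 in B6 livers, and Bst2, C1qa and both collagens lie lower in every 129 library than in any B6 library.

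Of 19 measured clock genes 2 were higher and 1 lower, a share of 15.8% against 26.9% of all genes, with a median of 0.01. Bhlhe41 (Dec2), a repressor of the clock, had 2.0, 12 and 45 in 129 livers, against 0.009, 3.81 and 15.2 in B6 livers (log2 difference 1.52 ± 0.44, adjusted p = 0.0142). Nfil3, a repressor of D-box genes, had 55.6, 137 and 283 in 129 livers, against 28.7, 90.7 and 314 in B6 livers (0.66 ± 0.22, adjusted p = 0.0306). Nr1d1 (REV-ERBα) had 8.90, 53.1 and 104 in 129 livers, against 17.8, 70 and 133 in B6 livers (-0.75 ± 0.24, adjusted p = 0.0228). All 3 overlapped widely. The call of Nfil3 was lost in 5 of the 18 refits that each left out 1 library (adjusted p up to 0.0668), that of Nr1d1 without 129 ZT2 replicate 1 (adjusted p = 0.0508), and all 3 with Mir6236 as a covariate. The core activator Arntl (Bmal1) had 5.85, 126 and 263 in 129 livers, against 3.96, 21.9 and 258 in B6 livers, and was not called (0.77 ± 0.42, adjusted p = 0.185). Dbp had 3.94, 50.4 and 386 in 129 livers, against 8.47, 194 and 359 in B6 livers (-0.78 ± 0.32, adjusted p = 0.0759). A miss of the threshold does not show that the levels were alike.

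Whether the strain difference itself changed over ZT2, ZT6 and ZT10 was tested for all genes, and 1 of 11287 (0.00886%) passed, with 691 at an unadjusted p below 0.05. That gene was Slc30a10, a manganese exporter (adjusted p = 0.0334). At ZT2 it had 694, 672 and 551 in 129 livers, against 488, 494 and 511 in B6 livers. At ZT6 it had 317, 388 and 376, against 330.4, 177 and 249 in B6. At ZT10 the 129 libraries had 79.5, 60.4 and 99.2, against 271, 181 and 207 in B6. The 129 libraries were above every B6 library at ZT2, overlapped them at ZT6 and were below every one at ZT10, with log2 differences of 0.35, 0.55 and -1.46. The call was lost with replicates as a block (adjusted p = 0.171) and in 12 of the 18 refits that each left out 1 library. When the fits were tried beforehand on planted changes, the test over times found 1.49% of those of 0.5 log2. It found 16.4% of those of 1 log2 and 62.1% of those of 2 log2. The low count therefore does not show that the strain difference was stable over these times.

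Other lists were mixed, and are to be read against the 14.7% of all genes higher and 12.3% lower. Of 28 genes of amino acid use and the urea cycle 5 were higher and 5 lower (median 0.04), with Gpt2, the mitochondrial alanine aminotransferase, at 1123, 1725 and 2872 in 129 livers, against 2139.7, 2982 and 3972 in B6 livers (log2 difference -0.69 ± 0.12, adjusted p = 0.000223). Of 18 genes of metal handling 3 were higher and 3 lower: Hfe, the hemochromatosis protein, had 108, 138 and 179 in 129 livers, against 243, 329 and 388 in B6 livers (-1.10 ± 0.09, adjusted p = 1.33e-08), without overlap. Of 11 NRF2 targets 3 were higher (Ugdh, Gsr and Gclm) and none lower, but Ugdh lost its call in 12 of the 18 refits that each left out 1 library (adjusted p up to 0.0784). Of 10 genes of sterol efflux Scarb1 was higher and Nr1h3 (LXRα) lower (-0.40 ± 0.09, adjusted p = 0.00181). Of 15 hepatocyte markers 4 were higher (Alb, Cps1, Cyp2e1 and Apob, whose call is unstable as given above) and 2 lower (Ttr and Glul). Alb was listed only at 176662, 439903 or 863453 in the 18 libraries, the last being the top value of the table. Apob was listed only at 110328, 376869 or 439903. A shift in rank moves such a gene from one fixed value to another, so the size of these differences is uncertain. Of 12 pericentral genes 4 were higher and 3 lower, and of 12 periportal genes 3 were higher and 1 lower (Ctsc, -0.86). Slc1a2, a glutamate transporter of pericentral hepatocytes, had 507, 635 and 751 in 129 livers, against 1059, 1573 and 1856 in B6 livers (-1.21 ± 0.09, adjusted p = 3.18e-09). Of the sparsely measured lists, 2 of 5 cholangiocyte markers were lower (Prom1 and Spp1), 1 of 6 monocyte markers was higher (Cd9), 1 of 7 erythroid markers (Alas2), 1 of 6 immediate early genes (Ier2), 2 of 11 ATF4 targets (Asns and Atf5) and the 1 measured acinar gene (Cela1). With 1 library left out, the call was lost in 9 of 18 refits for Prom1, in 5 for Spp1 and in 4 for Ier2. No neutrophil or lymphocyte marker of the 4 and 1 measured was called.

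The dependence of the strain difference on diet was tested on 36 libraries, with the strain difference on the high-fat diet minus that on chow, both at ZT2, ZT6 and ZT10. It was called for 496 genes (4.39%), of which 310 (2.75%) were positive and 186 (1.65%) negative. Of the 496, 366 were called on the high-fat diet and 179 on chow: 291 on the high-fat diet only, 104 on chow only, 48 on both with the same sign, 27 on both with opposite signs and 26 on neither. After a GC and length trend was removed it was 599, with 228 positive and 371 negative (293 of the 496 kept), so which direction is more frequent depends on that step. The same GC slope ranged over -0.993 to 0.456 in 129 and -1.08 to 0.245 in B6 libraries on chow. The count depended on single libraries and on ZT6: without ZT6 it was 98, and leaving out 1 library gave 292 to 949. The libraries that moved it by more than 1.5 times were, on chow, B6 ZT2 replicate 1 (949 without it), 129 ZT6 replicate 1 (917), B6 ZT10 replicate 1 (292), B6 ZT2 replicate 3 (309) and 129 ZT10 replicate 1 (309), and on the high-fat diet B6 ZT6 replicate 1 (781), 129 ZT2 replicate 1 (313) and 129 ZT6 replicate 1 (318). The strain difference on chow was called for 1838 genes (16.3%), 839 higher (7.43%) and 999 lower (8.85%). Both strain effects were called for 1058 genes, 34.8% of those of the high-fat diet and 57.6% of those of chow, and 1031 had the same sign. Of the 672 genes with at least a 2-fold difference on the high-fat diet 451 (67.1%) were also called on chow.

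**Figure D4:**
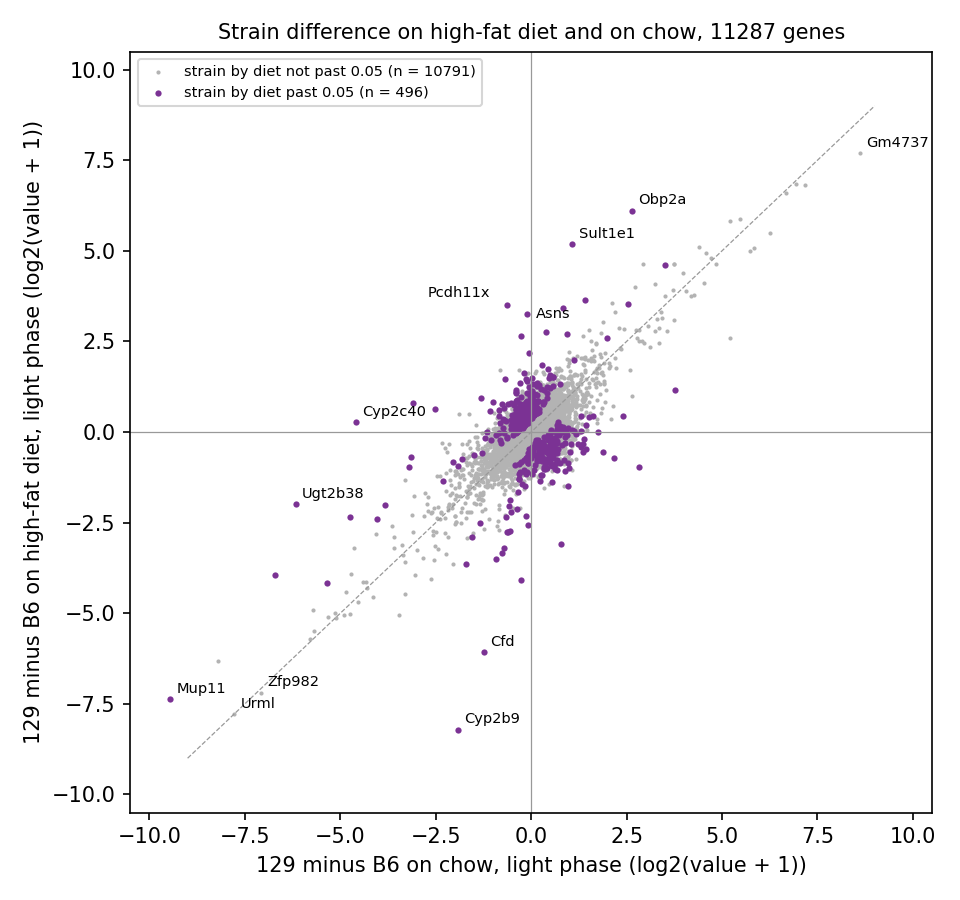
Each point is 1 of 11287 genes, with the strain difference (129 minus B6, log2) on the high-fat diet on the y axis and on chow on the x axis, both in the light phase, and a dashed line of equal differences; genes whose difference depended on diet (496) are purple. Cyp2b9 (-8.21) and Cfd (-6.07) lie low on the y axis, and Cyp2c40 (-4.59) and Ugt2b38 (-6.17) lie far left on the x axis.

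The largest changes with diet were those of genes at very different levels on chow and on the high-fat diet. Cyp2b9 had 0, 0 and 0.778 in 129 livers, against 69.2, 246 and 1279.6 in B6 livers on the high-fat diet. On chow it had 0, 0 and 1.24 in 129 livers, against 0, 2.34 and 19 in B6 livers. The difference of differences was -6.31 ± 0.77, adjusted p = 1.1e-05. Cfd followed the same pattern: on chow it had 0, 0 and 0.924 in 129 livers, against 0, 2.06 and 8.20 in B6 livers, and the difference of differences was -4.84 ± 0.67, adjusted p = 6.45e-05. Sult1e1 was at 0, 1.78 and 11 in 129 livers, against 0, 0.130 and 3.01 in B6 livers on chow, with a difference of differences of 4.11 ± 0.53, adjusted p = 2.42e-05. Pcdh11x, a protocadherin, had 38.4, 64.3 and 108 in 129 livers, against 2.38, 4.0 and 12.5 in B6 livers on the high-fat diet. On chow it had 0, 2.05 and 9.59 in 129 livers, against 0.0110, 3.94 and 11.8 in B6 livers. The difference of differences was 4.13 ± 0.56, adjusted p = 6.19e-05. In Sult1e1 and Pcdh11x the 129 livers on the high-fat diet were the high group.

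Cyp2c40 and Ugt2b38 showed another pattern, with B6 livers on chow as the high group. Cyp2c40 had 0, 0.728 and 3.04 in 129 livers, against 0, 0.0110 and 3.64 in B6 livers on the high-fat diet, where it was not called (0.27 ± 0.50, adjusted p = 0.725). On chow it had 0.256, 2.29 and 7.25 in 129 livers, against 34.3, 95.6 and 132 in B6 livers. The difference of differences was 4.86 ± 0.55, adjusted p = 3.07e-06. Ugt2b38, a male-biased glucuronosyltransferase, had 0, 0.0290 and 1.0 in 129 livers, against 0, 2.66 and 15.8 in B6 livers on the high-fat diet (-1.999 ± 0.50, adjusted p = 0.00504). On chow it had 0, 0.302 and 3.59 in 129 livers, against 58, 99 and 303 in B6 livers, with a difference of differences of 4.17 ± 0.66, adjusted p = 0.000328. The microRNA entries Mir6236 and Mir6240 were also among the 8 largest: their differences of differences were -3.87 ± 0.77, adjusted p = 0.00392 and -3.81 ± 0.97, adjusted p = 0.0213, and neither was called without ZT6.

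**Figure D5:**
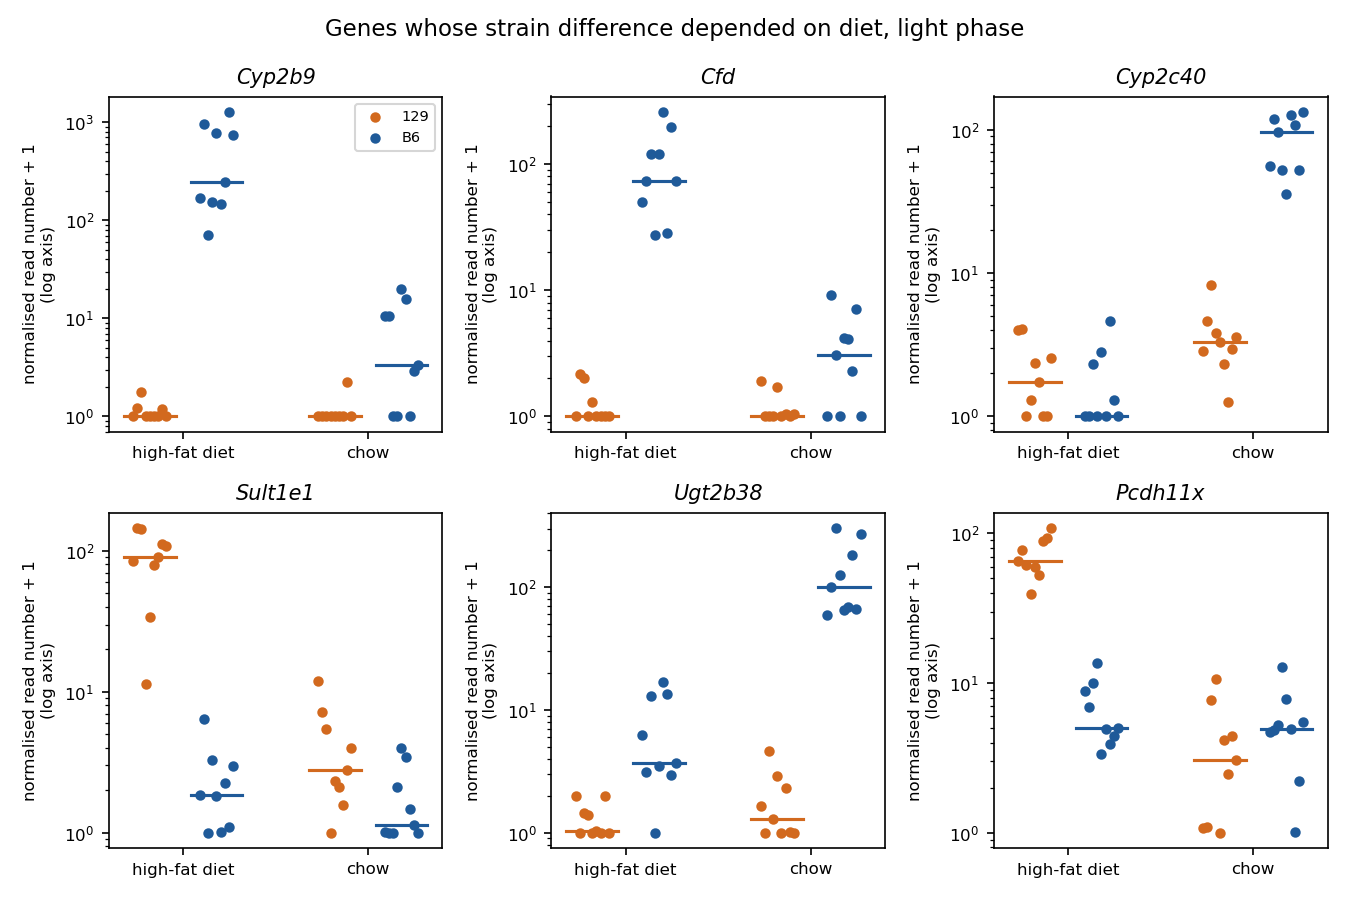
Normalised values + 1 of 6 genes with a diet-dependent strain difference on a log axis, for 129 and B6 livers on the high-fat diet and on chow (9 libraries each at ZT2, ZT6 and ZT10); points are libraries and bars medians. B6 livers on the high-fat diet are the high group for Cyp2b9 and Cfd, B6 livers on chow for Cyp2c40 and Ugt2b38, and 129 livers on the high-fat diet for Sult1e1 and Pcdh11x.

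By list, the male-biased genes had the most members with a diet-dependent strain difference: 7 of 17 were positive and 0 negative, against 2.75% and 1.65% of all genes. They were Ugt2b38, Serpina1e, Selenbp2, Cyp4a12a, Cyp4a12b, Mup20 and C6. For these the 129 minus B6 difference was less negative or more positive on the high-fat diet than on chow. Cyp4a12a had 1946, 2462 and 2987 in 129 livers, against 1068, 1799 and 3197 in B6 livers on chow, where it was not called (0.39 ± 0.15, adjusted p = 0.102). Its difference of differences was 2.39 ± 0.24, adjusted p = 2.08e-07. Serpina1e had 125, 301 and 974 in 129 livers, against 22394, 32504 and 45004 in B6 livers on chow, with a difference of differences of 2.79 ± 0.55, adjusted p = 0.00337. On chow 0 of the 17 were higher and 7 lower in 129 livers. The count of positive members was 7 without ZT6 and 7 after the GC and length trend was removed. The major urinary proteins had 4 positive members of 16 (Mup2, Mup8, Mup11 and Mup20), and complement had 5 of 25 (Hc, C6, C8a, C9 and C4bp) with 1 negative (Cfd). The complement count was 3 without ZT6 and 2 after the GC and length trend was removed.

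In the dark phase on the same diet 2995 genes differed between the strains (26.5%), 1608 higher (14.2%) and 1387 lower (12.3%). Of the light-phase calls 1777 were called there too, 58.5% of the light-phase and 59.3% of the dark-phase calls, and 1776 of them had the same sign. Of the 672 genes with a 2-fold difference in the light phase 586 (87.2%) were called in the dark. The difference between the phases was called for 1 gene (0.00886%), with 1029 at an unadjusted p below 0.05. That gene was Vkorc1, the vitamin K epoxide reductase that warfarin blocks. In the light phase it had 445, 479 and 522 in 129 livers, against 119, 275 and 355 in B6 livers (log2 difference 1.03 ± 0.13, adjusted p = 6.6e-06). In the dark phase it had 412, 453 and 478 in 129 livers, against 237, 339 and 426 in B6 livers (0.43 ± 0.08, adjusted p = 0.000628). The difference of differences was 0.60 ± 0.10, adjusted p = 0.0268. The lowest Vkorc1 values were those of the 3 B6 libraries of ZT6, 119, 138 and 158, which also had the highest Mir6236. The call was lost with replicates as a block (adjusted p = 0.278) and in 17 of the 36 refits that each left out 1 library.

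In the dark phase some gene groups had counts near those of the light phase and others did not. Cholesterol synthesis genes were lower in 13 of 24 and fatty acid synthesis genes in 11 of 18, with no member higher. Interferon-response genes were lower in 24 of 29, with 2 higher, and antigen presentation genes in 14 of 24. In the stellate cell and fibrosis list 6 of 11 were lower. The acute phase list had 3 higher and 3 lower members of 29 (median 0.01 log2, against 0.38 in the light phase), and complement 2 and 4 of 25. In dark-phase B6 libraries the summed level of the acute phase list reached 995540 (median 241850) and that of complement 484390 (median 89164). Without B6 ZT22 replicate 3 the dark-phase count of all genes was 3717. The part of single libraries in these list counts was not tested. Of 20 glutathione transferases 0 were higher and 1 lower, and of 19 clock genes 6 were higher and 0 lower (median 0.37). Scd1 had a log2 difference of -3.13 ± 0.90, adjusted p = 0.0146 in the dark, Hmgcs1 -1.69 ± 0.28, adjusted p = 0.000188, Bst2 -1.58 ± 0.13, adjusted p = 2.56e-08 and Col3a1 -2.22 ± 0.34, adjusted p = 9.03e-05. Apcs was 1.11 ± 0.46, adjusted p = 0.0785. None of these genes was called for a difference between the phases, which was not tested for lists.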

How the data were processed

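Total RNA of mouse liver was made into TruSeq libraries, per the labels' protocols. The table used holds, for each RefSeq transcript, read numbers that the authors put through quantile normalisation before they deposited them, a signal and not a count. The submitters' processing notes name STAR, HOMER and mm10, and versions are not given in the sources used here. All 72 wild-type libraries held identical sorted values over 42361 transcripts (25125 symbols), 23.5% of them 0. Depth is therefore unknown and no counting interval can be given, and a shift of the whole transcriptome would be invisible. Abundant transcripts take few distinct values. The 54 libraries of the other deposited tables were not used.

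Values were taken as log2(value + 1). Per symbol the transcript with the highest mean was kept where that mean over the 72 libraries was at least 10, which left 11287 genes. With limma 3.58.1 in R 4.3.3 (moderated by eBayes, with an intensity trend), strain and time were fitted to the 18 libraries, and group means to 36 libraries for differences of strain effects between diets and phases. P-values are two-sided and Benjamini-Hochberg adjusted over all genes, with a threshold of 0.05. The fits were tested on simulated data beforehand.

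Named genes were the 15 largest in each direction among called genes with one sign at all 3 times and a mean of at least 50 in the higher strain. To these came up to 4 called members per list with the largest differences, without a limit on sign or level. Up to 8 per difference of differences were named, with a mean of at least 50 in at least 1 group compared. Esrrg and the clock genes were always named. Others named beside a count were named after their values were seen. The members, the lists and the tests were chosen with earlier results of these data known, so no list is independent evidence. Promoter windows are from RefSeq (GRCm38.p6).

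Alternatives covered the pseudocount, the filter, the transcript kept, the fit, GC and length, Mir6236 as a covariate, the replicate number as a block, single times and each library left out. Leaving out ZT6, and the GC and length step for strain by diet, were added after seeing the data. Some genes are not reported here.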

Additional observations from a re-analysis of the deposited data

Results flagged for a closer look

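Each of the 185 named genes was checked in both strains for a library that stood apart from the other 8, by a gap to its nearest neighbour that, as a share of the group's range, passed Dixon's 95% critical value for 9 samples. Of 370 such checks 27 met this, and chance gives about 1 in 20. In 129 livers these were Serpina3c in ZT6 replicate 1 (512.2), Asic5 in ZT6 replicate 1 (936.7), Cyp2b9 in ZT2 replicate 3 (0.778), Urml in ZT10 replicate 1 (3.412), Fitm1 in ZT10 replicate 3 (8.506), Pparg in ZT2 replicate 2 (12.7), Apoa4 in ZT2 replicate 3 (12410), Hspd1 in ZT6 replicate 2 (2626), C9 in ZT10 replicate 2 (3025), Col1a2 in ZT2 replicate 3 (9.048) and Prom1 in ZT10 replicate 2 (0.002).

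Of the B6 libraries, ZT6 replicate 1 stood apart for Prxl2b (listed at 0), Lpin2 (947.1), Angptl8 (624.8), Klb (519), Herpud1 (1016), Bst2 (160.4) and C1qb (35.26). The other ZT6 replicates stood apart for Canx (3142) and Rora (725.9) in replicate 2 and H2-Q7 (10) in replicate 3. At ZT2 these were Serpina3c in replicate 3 (6.216) and Gm1966 (67.48), Cps1 (110300) and Folr2 (23.12) in replicate 1. At ZT10 they were Gpd1 in replicate 2 (2155) and Mcm2 in replicate 1 (2.319).

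The strain difference itself differed between the diets in the limma fit for Sult1e1 (difference of log2 differences 4.11), Cyp2b9 (-6.31), Cfd (-4.84), Ugt2b38 (4.17), Cyp2c40 (4.86), Pcdh11x (4.13), Mir6236 (-3.87) and Mir6240 (-3.81). Vkorc1 differed between the light and the dark phase (0.60). The strain difference of Slc30a10 differed between times of the light phase (adjusted p = 0.0334).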

How the results depend on the processing

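The 3040 calls of the strain difference stayed within 1.5 times under a pseudocount of 5 (3116), no filter (2813), a filter at a mean of 50 (2307), limma without a trend (2937), array weights (3922) and all 72 libraries in the fit (2349). They were 2732 after removal of a GC and length trend, with 2212 of the 3040 kept, and 2490 without ZT6. They were 1440 with Mir6236 as a covariate (1252 kept), where standard errors were 1.52 times larger in the median. They were 901, 416 and 1025 at ZT2, ZT6 and ZT10 alone, each with fewer libraries, and 672 with a difference of at least 1 log2. Leaving out 1 library gave 2585 to 3585. Strain by time gave 0 to 9 calls with 1 library left out (9 without B6 ZT6 replicate 2). Strain by phase gave 0 to 4 (4 without B6 ZT6 replicate 1), 3 with a pseudocount of 5 and 2 with a filter at a mean of 50. Strain by diet gave 320 with no filter, 98 without ZT6, 599 (228 higher and 371 lower) after the GC and length step, and 292 to 949 with 1 library left out. The chow and dark-phase counts were 1568 to 2145 and 2613 to 3717 with 1 library left out. The labels do not say what a replicate number marks, and deviations of same-numbered libraries from their group means correlated between -0.256 and 0.354 over 9 pairs, 3 of them above 0.1, so the numbers were not treated as pairs (4 of 9 correlated best with their own number). On chow the range was -0.709 to 0.845 (4 of 9 above 0.1, among them all 3 pairs of ZT2 at 0.845, 0.516 and 0.71), and in the dark phase -0.177 to 0.191 (1 of 9). With the replicate number as a block the counts were 2862 for the strain effect, 425 for strain by diet, 0 for strain by time, 0 for strain by phase, 1740 on chow and 2610 in the dark phase.

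Of 166 named genes called, 162 kept the call with the block, 148 of 156 after the GC and length step, 121 of 165 with Mir6236 as a covariate and 141 without ZT6. Leaving out 1 library ended the call at least once for 16: Nr1d1, Nfil3, Lpin2, Cidec, Apoa4, Apob, Gstm3, Ugdh, Dnajc3, Canx, Hamp2, Mcm2, Ier2, Prom1, Spp1 and Fabp4. The sign reversed for Nfil3 at ZT2 alone (-0.0186), Apob with Mir6236 as a covariate (-0.27), Ugdh (-0.19) and Igfals (0.0063) at ZT10 alone and Ciart, not called over all 3 times, at ZT10 alone (0.93). The cause was not tested. Depth is unknown, so its effect cannot be given.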

Other observations

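Genes of the Raet1 family, which encode cell-surface ligands of the NKG2D receptor of natural killer cells, belonged to no list and were picked after their values were seen. With the lowest, median and highest of 9 libraries, Raet1d had 1.78, 10.2 and 21.8 in 129 livers, against 44.6, 90.5 and 193 in B6 livers (log2 difference -3.50 ± 0.39, adjusted p = 8.14e-07). Raet1a had 2.64, 11.2 and 25.8 in 129 livers, against 49.9, 78.8 and 172 in B6 livers (-3.20 ± 0.36, adjusted p = 9.87e-07). Raet1b and Raet1e had log2 differences of -3.33 and -2.56. In Raet1a, Raet1b, Raet1d and Raet1e every 129 library was below every B6 library. On chow Raet1d had 13.3, 27.2 and 86.5 in 129 livers, against 36.8, 67.8 and 89.9 in B6 livers (-0.93 ± 0.29, adjusted p = 0.0312), and its difference of differences was -2.57 ± 0.45, adjusted p = 0.00114. These genes are near-identical copies that can share reads, so their values are not independent of each other.

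The share of tested genes with a called strain difference of at least 2-fold was 5.95% over all chromosomes. It was highest on chromosome 17 (8.66%, 49 of 566 genes), which holds the H2 genes, and on chromosome 7 (7.81%, 63 of 807), and lowest among the autosomes on chromosome 11 (4.2%, 37 of 881). On the X chromosome it was 2.4% (8 of 333). These shares are a description of the called genes, with no test between chromosomes.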
